A study of Mus musculus with 6 samples.

Results

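The genes described here are the 8 protein-coding neighbours of the HoxA homeobox cluster on mouse chromosome 6, Skap2, Snx10, Cbx3, Hnrnpa2b1, Nfe2l3, Hibadh, Tax1bp1 and Jazf1. They were taken by gene name from a table of 24012 genes, and all 8 were found. Chromatin immunoprecipitation followed by sequencing (ChIP-seq) had measured di- and trimethylation of lysine 79 of histone H3 (H3K79me2 and H3K79me3) in primary hematopoietic progenitors from mouse bone marrow. Retroviral transduction had given all of them the leukemia fusion MLL-AF9, either unchanged (WT) or with an arginine in place of an aspartate at 1 position (D544R or D546R). No group without the fusion was used here, so WT stands for the unchanged fusion and not for normal progenitors. There were 6 libraries, a single one for each of 3 genotypes and 2 marks, and the labels name neither animals nor clones. Without replicates no groups were tested, and the intervals cover counting error only, not the variation between cultures. Scaling hides any change of a mark that is common to all genes, and a change in all cells cannot be told apart from a larger change in a share of them. The values are read counts over a region per gene, from 2 kb outside the gene to the other end of the transcript.

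H3K79 methylation is written by DOT1L and is found over the bodies of transcribed genes. AF9 binds DOT1L, and in leukemia cells the MLL-AF9 fusion brings it to HoxA and other targets of the MLL part, where the mark covers wide domains. The neighbours of HoxA are mostly unrelated to it in function. Skap2 encodes an adaptor of Src-family kinase signaling in myeloid cells, Snx10 an endosomal sorting nexin needed by osteoclasts, and Cbx3 the heterochromatin protein HP1 gamma. Hnrnpa2b1 encodes an RNA-binding protein of splicing, Nfe2l3 a CNC-family leucine zipper factor, and Hibadh an enzyme of valine breakdown. Tax1bp1 encodes an autophagy receptor that also restrains NF-kB signaling, and Jazf1 a zinc finger protein of the NuA4 acetyltransferase complex.

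From the lowest coordinate the order was Nfe2l3, Hnrnpa2b1, Cbx3, Snx10, Skap2, the HoxA cluster, Hibadh, Tax1bp1 and Jazf1. Distances are from the middle of the Hoxa9 region to the nearest edge of a region, on mm9. Skap2 (NM_018773, chromosome 6, 51807163 to 51962548) lay 212 kb away, the nearest of the 5 genes on the side of lower coordinates. Snx10 (NM_001127349, 51471901 to 51540669) lay at 634 kb and Cbx3 (NM_007624, 51418614 to 51433703) at 741 kb. Hnrnpa2b1 (NM_016806, 51408433 to 51419893) and Nfe2l3 (NM_010903, 51380668 to 51408767) lay at 754 and 765 kb. On the other side Hibadh (NM_145567, 52494223 to 52590294) was nearest at 320.0 kb. Tax1bp1 (NM_025816, 52661722 to 52716773) followed at 487 kb and Jazf1 (NM_173406, 52716061 to 53018618) at 542 kb. Skap2 is on the minus strand, so its start was its edge nearest to the cluster. Hibadh is on the same strand, and its start was the far edge, 416.1 kb from Hoxa9.

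Start regions of 4 of the genes are shown because they hold the contrasts below: Skap2 and Hibadh are the nearest neighbours on either side, and Hnrnpa2b1 and Cbx3 start back to back. Each sequence is the 250 bases before the annotated start, on the strand of the gene, from RefSeq on GRCm38.p6, a later build than that of the counts. Capitals mark each CG, a dinucleotide that reads the same on both strands. Skap2 is chr6:52012550-52012799 (minus), Hibadh chr6:52640301-52640550 (minus), Hnrnpa2b1 chr6:51469895-51470144 (minus) and Cbx3 chr6:51470366-51470615 (plus).
Skap2: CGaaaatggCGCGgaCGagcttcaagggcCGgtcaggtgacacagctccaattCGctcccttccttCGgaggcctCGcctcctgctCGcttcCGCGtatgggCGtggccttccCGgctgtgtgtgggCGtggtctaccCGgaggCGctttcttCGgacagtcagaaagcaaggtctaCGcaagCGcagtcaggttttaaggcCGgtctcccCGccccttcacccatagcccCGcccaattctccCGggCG
Hibadh: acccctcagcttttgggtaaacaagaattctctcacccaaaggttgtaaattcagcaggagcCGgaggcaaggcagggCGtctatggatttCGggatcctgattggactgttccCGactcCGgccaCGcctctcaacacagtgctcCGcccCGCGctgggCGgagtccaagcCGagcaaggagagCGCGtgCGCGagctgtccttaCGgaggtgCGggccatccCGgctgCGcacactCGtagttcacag
Hnrnpa2b1: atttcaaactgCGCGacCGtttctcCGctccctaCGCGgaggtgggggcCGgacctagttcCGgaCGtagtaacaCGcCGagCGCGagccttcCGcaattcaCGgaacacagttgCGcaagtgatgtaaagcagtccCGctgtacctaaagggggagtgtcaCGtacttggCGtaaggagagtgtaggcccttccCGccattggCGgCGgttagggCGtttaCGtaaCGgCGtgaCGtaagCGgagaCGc
Cbx3: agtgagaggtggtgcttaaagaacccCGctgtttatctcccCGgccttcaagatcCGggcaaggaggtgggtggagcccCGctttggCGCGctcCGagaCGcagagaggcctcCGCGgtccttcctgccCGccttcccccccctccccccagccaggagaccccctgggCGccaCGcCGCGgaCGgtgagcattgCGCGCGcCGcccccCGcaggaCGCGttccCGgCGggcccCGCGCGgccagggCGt
Skap2 had 24 CG dinucleotides in this window, a number reached by 12.0% of the 32851 promoters in the reference. Hibadh had 20, reached by 17.9%. Hnrnpa2b1 and Cbx3 have 2 promoters each in the reference, and the sequences shown are the first of each, both with 29, reached by 6.8%. The second promoters had 28 and 31. Of all promoters 92.1% held at least 1 CG, and the median was 6. All 8 genes were matched, and Nfe2l3 had the median number, 6. The starts of Hnrnpa2b1 and Cbx3 lie 721 bases apart in the regions counted here, and those regions shared 1280 bases. Reads in that stretch, 11.2% of the Hnrnpa2b1 region and 8.48% of the Cbx3 region, could be counted for both. Smaller stretches were shared by Hnrnpa2b1 and Nfe2l3 (335 bases) and by Tax1bp1 and Jazf1 (713 bases).

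Libraries held 3558329 to 6652571 counts over all genes. Counts were divided by a size factor per library, and levels of different genes are compared only as counts per kb, given as a ratio to 48 genes of other tissues that are silent in blood. Progenitor and myeloid markers such as Kit, Mpo and Spi1 had a median of 2.60 times the silent level in WT H3K79me2, with 7 of 10 at least 2-fold above it and none at 0. Lymphoid markers were at 0.97 and stromal markers at 0.93, with 0 of 8 at least 2-fold above the silent level in each list. Erythroid markers were at 0.82, with 1 of 8 at least 2-fold above it. In H3K79me3 the progenitor and myeloid markers at least 2-fold above it were 5 of 10 in WT, 3 in D544R and 4 in D546R. Of the lymphoid, erythroid and stromal markers 0, 1 and 0 of 8 were so in WT H3K79me3, and 1 of 8 in each list in D546R. In H3K79me2 the 6 mast cell markers had a summed level of 1.63 in WT, 1.81 in D544R and 2.59 in D546R, with none at 0, and the 10 progenitor and myeloid markers had 4.61, 4.55 and 6.14. In H3K79me3 the mast cell markers had 0.62, 1.10 and 0.72, with 2 of 6 at 0 in D546R. The progenitor and myeloid markers had 2.57, 2.11 and 2.22 there. Their part in the results was not tested. Reads without molecular identifiers can be duplicates, so a second interval divides each count by the estimated number of reads per independent fragment. That number was 4.05, 3.26 and 4.78 in WT, D544R and D546R for H3K79me2, and 9.73, 8.12 and 18.6 for H3K79me3. It comes from short regions without counts, so uneven density of a mark can raise it, and it is not a measured duplicate rate. D546R had the highest number in both marks, and the most regions at 0. These were 795 and 2203, against 138 and 1063 in WT and 164 and 983 in D544R. Genotype and library quality thus cannot be told apart here. The second interval is called the fragment interval and is the interval printed unless stated otherwise.

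In WT the 8 genes covered a wide range of H3K79me2 per kb. Hnrnpa2b1 stood highest at 14.6 times the silent level, followed by Cbx3 (13.3), Skap2 (9.98), Tax1bp1 (7.59), Snx10 (3.74), Hibadh (2.48), Jazf1 (1.25) and Nfe2l3 (1.13). Neighbours in this order differed beyond the fragment interval except Hnrnpa2b1 and Cbx3 (1.10-fold, 0.87 to 1.40) and Jazf1 and Nfe2l3 (1.10-fold, 0.73 to 1.74). In WT H3K79me3 Hnrnpa2b1 was again highest (13.1), then Skap2 (5.36), Cbx3 (5.02) and Tax1bp1 (4.31). These last 3 did not differ in sequence beyond the interval. Snx10, Hibadh, Nfe2l3 and Jazf1 lay between 1.14 and 1.47 times the silent level, and neighbours among them did not differ beyond it either.

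**Figure D1:**
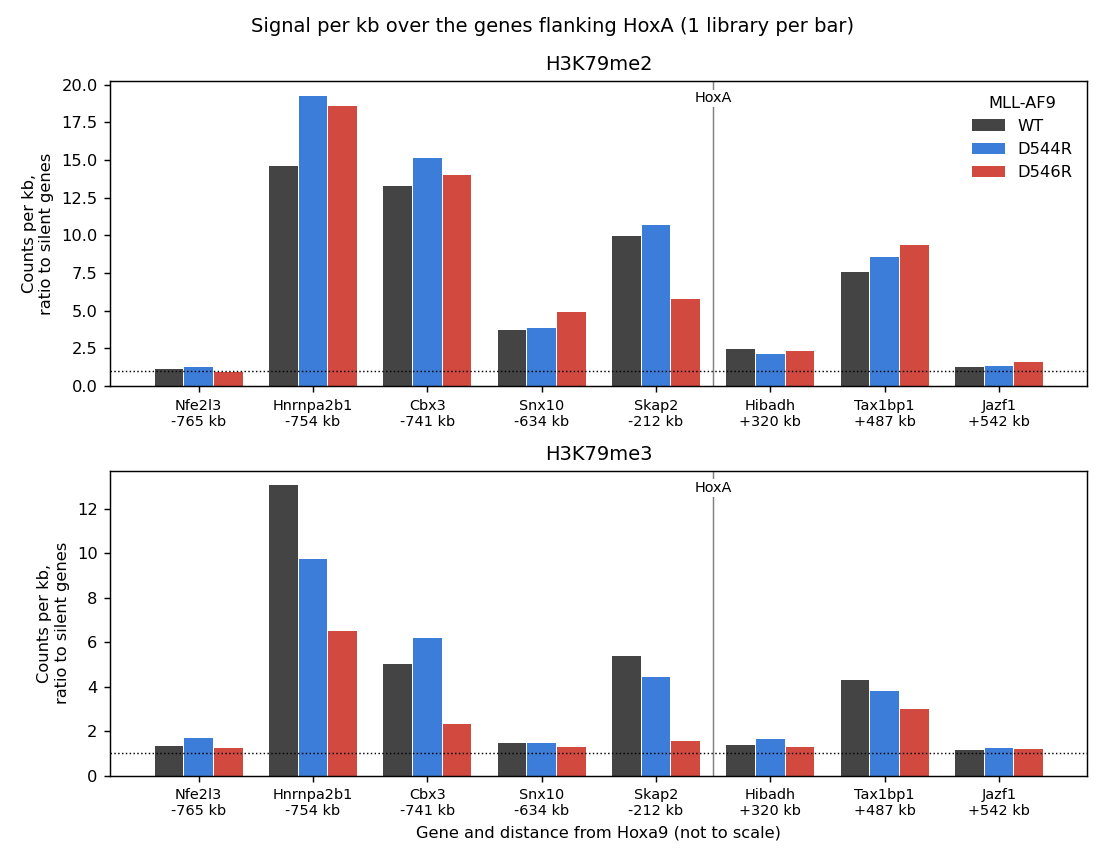
Counts per kb over each flanking gene as a ratio to the silent genes of the same library (linear axis from 0, dotted line at 1), in genomic order, with 1 library per bar for WT, D544R and D546R. Skap2 stands at 9.98 in WT and 5.79 in D546R for H3K79me2, and at 5.36 and 1.57 for H3K79me3, while Hibadh stays between 1.27 and 2.48 in every bar.

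D546R against WT compared the marks of genes beside a fusion target between the fusion with this exchange and the unchanged fusion. Skap2 was the flanking gene with the lowest ratio in both marks. In H3K79me2 it had normalised counts of 3578 in WT, 3797 in D544R and 1875 in D546R, so the D546R library stood apart and the other two lay close together. The log2 ratio of D546R to WT was -0.93 (-1.12 to -0.75), a 1.91-fold lower level. This was just short of the 2-fold rule used for calls, which asks for a 2-fold ratio, a counting interval without 0 and a mean normalised count of at least 100. Of 8905 genes with that mean, 102 had a lower ratio (rank 103).

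In H3K79me3 Skap2 had 3751 normalised counts in WT, 3198 in D544R and 1178 in D546R. The log2 ratio of D546R to WT was -1.67 (-2.05 to -1.31), 3.18-fold lower and rank 279 of 10824 genes. Its intervals in the 2 marks did not overlap, and it was the only flanking gene for which this held. The difference of its H3K79me3 and H3K79me2 ratios, -0.74, was however smaller in size than that of Hnrnpa2b1 (-1.11) and Cbx3 (-0.94). Those 2 genes had fewer counts and wider intervals. Per kb, the H3K79me3 of Skap2 in D546R was 1.57 times the silent level, against 5.36 in WT and 4.45 in D544R. In H3K79me2 it kept 5.79 times the silent level, against 9.98 and 10.7. With the density of the silent genes subtracted from each library, the ratio of D546R to WT was -2.83 in H3K79me3 and -1.05 in H3K79me2, the second now past 2-fold.

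Hnrnpa2b1 and Cbx3, which start back to back, had the next lowest H3K79me3 ratios in D546R, at or just short of 2-fold, and H3K79me2 ratios with intervals that included 0. Cbx3 had 341 normalised counts of H3K79me3 in WT, 430 in D544R and 170.3 in D546R. Its ratio of D546R to WT was -1.0 (-2.15 to 0.02), at the 2-fold line by the counting interval (-1.26 to -0.75) but with a fragment interval that included no change. Total counts, TMM factors, chromosome 6 size factors or a larger prior count each left it short of the line. Hnrnpa2b1 had 674 in WT, 515 in D544R and 359 in D546R, a ratio of -0.91 (-1.67 to -0.20), short of 2-fold. It was past the rule with silent genes setting the scale (-1.01) and after subtraction of their density (-1.04). In H3K79me2 the levels of Cbx3 were 461, 522 and 441 in WT, D544R and D546R, and those of Hnrnpa2b1 were 386, 506 and 444. The ratios of D546R to WT there were -0.06 (-0.49 to 0.35) and 0.20 (-0.24 to 0.63). For both genes the intervals of the 2 marks overlapped, so a difference between marks was not resolved at this depth.

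Snx10 and Nfe2l3, the other 2 genes on this side, did not change beyond their intervals. Snx10, which lies between Cbx3 and Skap2, had 593, 607 and 703 normalised counts of H3K79me2 in WT, D544R and D546R. Its ratios of D546R to WT were 0.25 (-0.10 to 0.59) in H3K79me2 and -0.08 (-0.82 to 0.64) in H3K79me3. Nfe2l3 had few counts, 73.5, 79.2 and 55.0 in H3K79me2, below the count minimum, and its ratio was -0.42 (-1.72 to 0.74). In H3K79me3 it stood at 0.02 (-1.24 to 1.21).

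On the far side of the cluster no gene was past the rule. Hibadh, the nearest, had 550.4, 473 and 463 normalised counts of H3K79me2 in WT, D544R and D546R, and 591, 733 and 589.6 of H3K79me3. Its ratios of D546R to WT were -0.25 (-0.66 to 0.15) and -0.0027 (-0.64 to 0.61). In H3K79me3 Hibadh was close to the silent level, at 1.37 times it in WT, 1.65 in D544R and 1.27 in D546R. Over the alternatives its H3K79me3 ratio of D546R to WT lay between -0.32 and 0.07. That of D546R to D544R lay between -1.19 and -0.24. Tax1bp1 had 964, 1078 and 1073 in H3K79me2, with a ratio of 0.16 (-0.12 to 0.43). In H3K79me3 it had 1069, 972 and 793, a ratio of -0.43 (-0.95 to 0.07), lowest in D546R but not beyond the interval. Jazf1, the longest region at 303 kb, had ratios of 0.20 (-0.09 to 0.48) and 0.14 (-0.23 to 0.50). Its density is close to the silent level, and with that level subtracted the H3K79me2 ratio was 1.07, past the rule. The upper bound of Skap2, -0.75 in H3K79me2 and -1.31 in H3K79me3, lay below the lower bound of every gene on this side in the same mark.

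**Figure D2:**
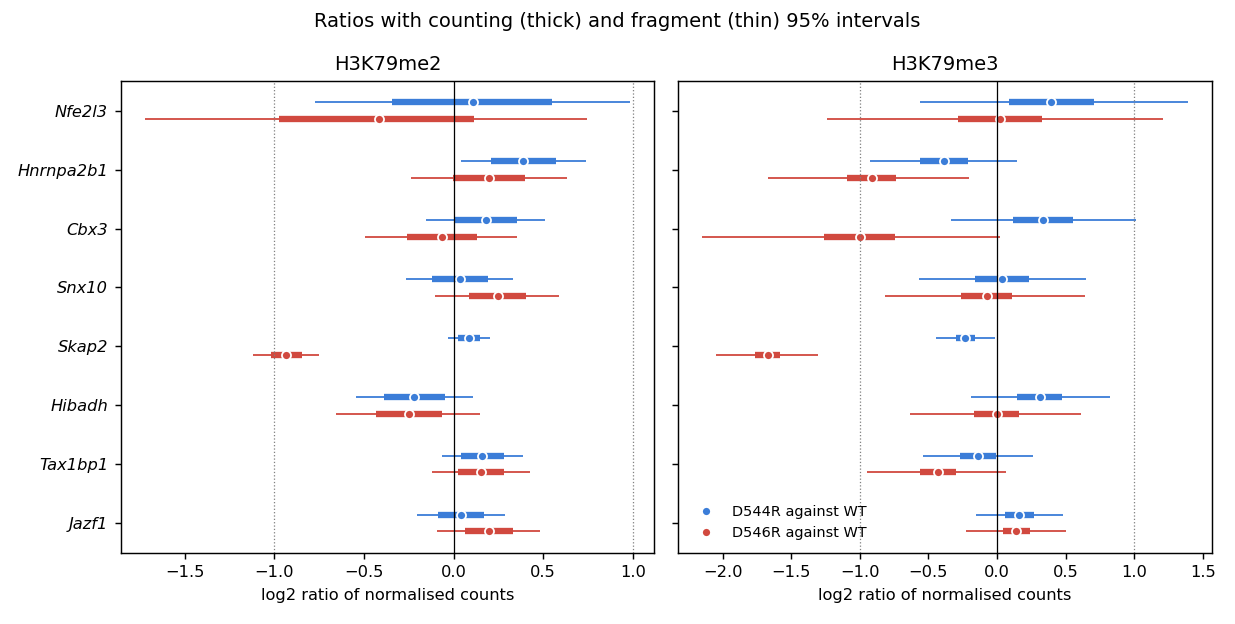
log2 ratio of normalised counts against WT for each flanking gene, D544R in blue and D546R in red, with 95% counting intervals as thick and fragment intervals as thin lines, and dotted lines at 2-fold. The D546R values of Skap2 (-0.93 and -1.67) lie to the left of those of all other flanking genes.

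Of the 7 flanking genes with enough H3K79me2 counts, 0 were past the rule in D546R against WT, against 0.865% lower and 0.853% higher among all genes. In H3K79me3, 2 of 8 were lower (Skap2 and Cbx3) and 0 higher, against 8.91% lower and 6.95% higher among all genes. With fragment intervals 1 of 8 remained, Skap2, against 5.55%. The median ratio of the 8 genes was 0.05 in H3K79me2 and -0.25 in H3K79me3, beside 0.01 and -0.0006 for all genes with a mean of at least 10. The H3K79me3 ratio of D546R to WT was lower over densely marked genes in general. Among the 10% of regions with the most WT H3K79me2 per kb, 20.3% were lower by the rule and the median ratio was -0.43. In D544R against WT the median of the same regions was -0.25. The D546R H3K79me3 library also had the most reads per fragment (18.6), and its part in this was not tested. Skap2, Cbx3, Hnrnpa2b1 and Tax1bp1 belong to these densely marked regions. Tax1bp1 (-0.43) stood at their median, Hnrnpa2b1 and Cbx3 at ranks 263 and 220 of 1083, and Skap2 at rank 63. How much of each gene's ratio goes with its density was not tested.

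In H3K79me2 the densely marked regions, ranked by WT H3K79me3, had a median of 0.13 in D546R and 3.48% were lower. Skap2 was at rank 37 of 891 there, while Cbx3, Tax1bp1 and Hnrnpa2b1 were at ranks 269, 470 and 511. Among all genes 0.865% were lower, so calls of lower H3K79me2 were more frequent among densely marked regions although their median was above 0, and 0.449% of these regions were higher.

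**Figure D3:**
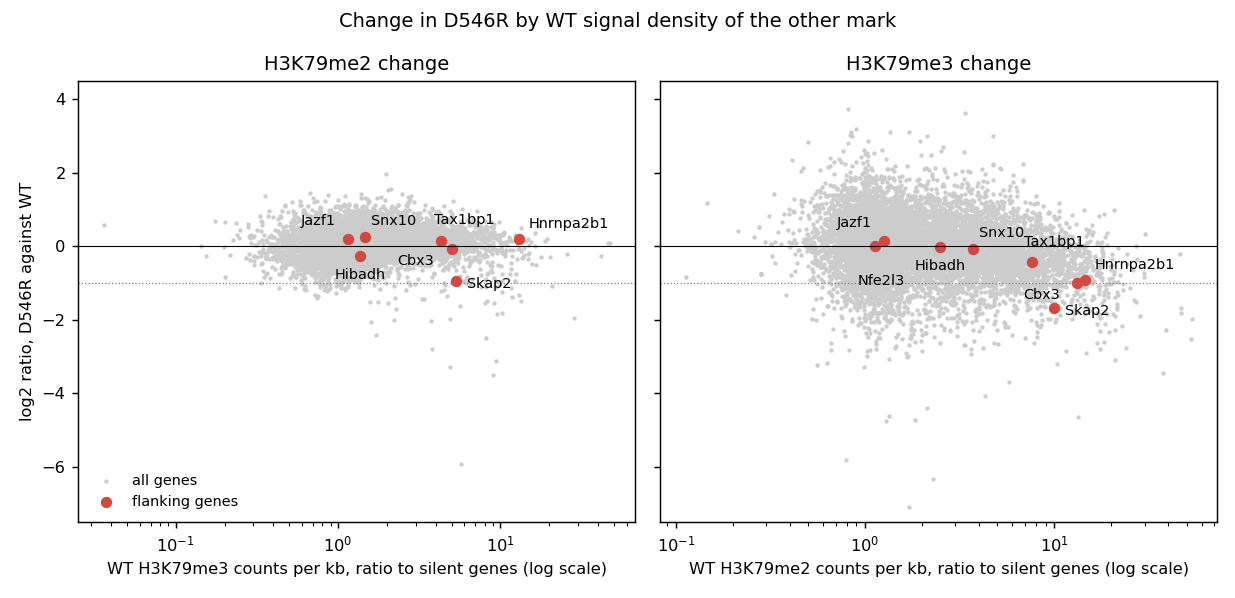
log2 ratio of D546R to WT (vertical) against the WT counts per kb of the other mark relative to silent genes (horizontal, log scale), for every gene whose normalised counts average 100 or more (grey) and the flanking genes (red). In the H3K79me3 panel the cloud bends down at high density, with Tax1bp1 at the median of the densest regions and Skap2 below it at -1.67, and in the H3K79me2 panel Skap2 at -0.93 lies under a cloud centred near 0.

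D544R against WT addressed the other exchanged residue. None of the flanking genes was past the 2-fold rule in either mark, against 0.0112% lower and 0.0337% higher of all genes in H3K79me2 and 3.02% and 4.34% in H3K79me3. Skap2 was at 0.09 (-0.03 to 0.20) in H3K79me2 and at -0.23 (-0.45 to -0.02) in H3K79me3. The densely marked regions had a median of -0.25 there, and Skap2 was at rank 570 of 1083 among them. Hnrnpa2b1 had the largest ratio in H3K79me2, 0.39 (0.04 to 0.74), with -0.39 (-0.93 to 0.15) in H3K79me3. Cbx3 stood at 0.18 and 0.33, Nfe2l3 at 0.11 and 0.40, Snx10 at 0.03 and 0.04, Tax1bp1 at 0.16 and -0.14, Jazf1 at 0.04 and 0.16, and Hibadh at -0.22 and 0.31. Of these 6 genes none had a fragment interval without 0. The median of the 8 genes was 0.10 in each mark.

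D546R against D544R compared the 2 mutants directly. Both this comparison and the one with WT use the same D546R libraries, so they are not independent. Skap2 was lower in D546R in both marks, by -1.02 (-1.21 to -0.83) in H3K79me2 and -1.44 (-1.82 to -1.07) in H3K79me3. It was the 1 of 7 flanking genes past the rule in H3K79me2, against 0.876% lower and 0.752% higher of all genes, or 0.865% lower with fragment intervals. The H3K79me2 call rests on a ratio close to 2-fold and did not hold when size factors came from all 6 libraries or when silent genes set the scale. In H3K79me3 Cbx3 joined it at -1.33 (-2.45 to -0.36). These 2 of 8 compare with 8.3% lower and 5.78% higher of all genes, and 5.16% lower with fragment intervals, which both genes passed. Hnrnpa2b1 was at -0.52 (-1.30 to 0.21), and Hibadh, Nfe2l3 and Tax1bp1 were at -0.31, -0.38 and -0.29, all with intervals that included 0.

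The ratios did not follow distance from Hoxa9 as a simple gradient. Inside the cluster, the homeobox genes Hoxa7, Hoxa9 and Hoxa10 were at -5.92, -2.49 and -2.78 in H3K79me2 in D546R and at -2.15, -0.92 and -0.95 in H3K79me3. Hoxa3, whose region overlaps 5 others, was past the rule in both marks. It was at -2.01 (-2.83 to -1.29) in H3K79me2 and -1.46 (-2.59 to -0.47) in H3K79me3. The H3K79me2 value of Hoxa7 rests on 2 counts in D546R against 254 in WT, with an interval from -18.06 to -2.69, and its mean of 94.3 in H3K79me3 is below the count minimum. Skap2, 212 kb away, was less reduced than these in H3K79me2 and had a lower H3K79me3 ratio than Hoxa9 and Hoxa10, whose intervals (-2.31 to 0.31 and -2.50 to 0.38) included its value. Between Skap2 and the HoxA cluster lay Gm15055, a noncoding gene model with 31 and 29 counts of H3K79me2 in WT and D546R, a ratio of 0.71 (-1.09 to 2.46). In H3K79me3 it had 50 and 115 counts, a ratio of 0.94 (-0.99 to 2.97), with a lower bound above the upper bound of Skap2 in that mark (-1.31). In WT, however, Gm15055 stood at only 0.78 and 0.89 times the silent level in H3K79me2 and H3K79me3. It had no signal above that level, so the contrast with Skap2 is not one of equal marks. Evx1, the homeobox gene at the end of the cluster nearest to Hibadh, had 23 and 9 counts of H3K79me2 and was at -0.52 (-4.02 to 2.03). In H3K79me3 Evx1 had 14 and 76 counts, a ratio of 2.15 (-0.83 to 6.48). Its WT levels were 1.08 and 0.46 times the silent level in H3K79me2 and H3K79me3. On the Skap2 side the order by distance in H3K79me3 was Skap2 (-1.67), Snx10 (-0.08), Cbx3 (-1.0), Hnrnpa2b1 (-0.91) and Nfe2l3 (0.02). The nearer Snx10 was thus less reduced than the farther Cbx3 and Hnrnpa2b1, though the intervals of these 3 overlap. The WT levels were also unequal. In WT H3K79me3 Snx10 and Nfe2l3 stood at 1.47 and 1.33 times the silent level, against 5.02 for Cbx3 and 13.1 for Hnrnpa2b1. Genes near that level have little signal to lose, so this order cannot separate position from WT level.

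**Figure D4:**
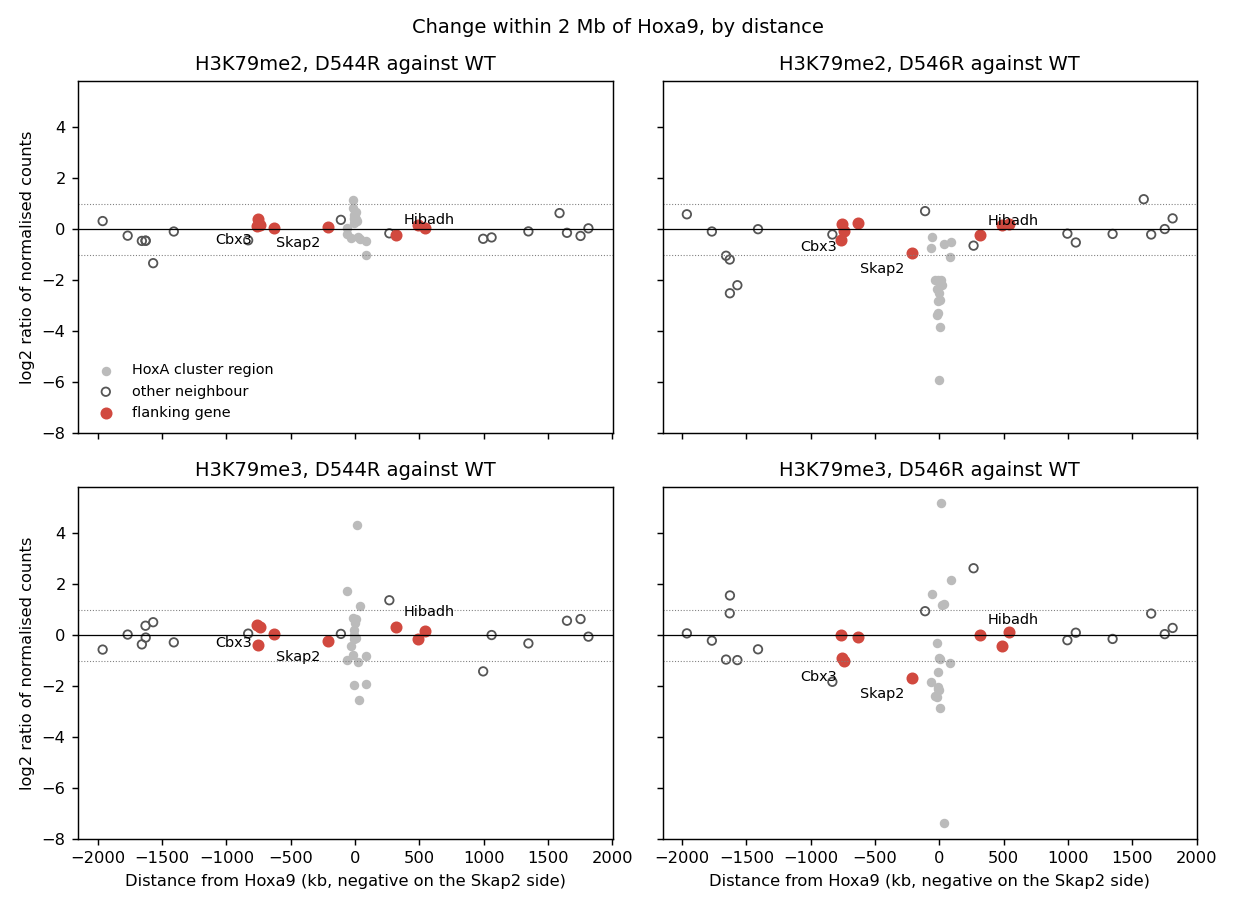
log2 ratio against WT for every region within 2 Mb of Hoxa9 whose normalised counts average 10 or more, by signed distance (kb, negative on the Skap2 side), for both marks and mutants, with flanking genes in red, HoxA cluster regions in grey, other neighbours as open circles and dotted lines at 2-fold. In D546R the lowest H3K79me2 values lie within the cluster (Hoxa7 at -5.92, from 2 counts in D546R), Skap2 is at -0.93 and no gene on the Hibadh side is past the 2-fold rule.

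A window of 2 Mb on either side of Hoxa9 held 44 regions, 18 of them in the HoxA cluster, Evx1 included, and 26 outside. The median ratio of those outside in D546R was -0.18 in H3K79me2 and -0.04 in H3K79me3, beside -0.04 and 0.01 for the other genes of chromosome 6. Within 0.5 Mb of Hoxa9 the 5 regions had medians of -0.25 and -0.0027, from 0.5 to 1 Mb the 7 measured regions had -0.06 and -0.20, and from 1 to 2 Mb the medians were -0.19 (13 regions) and 0.06 (12 regions). By side, the medians in D546R were -0.15 on the Skap2 side and -0.18 on the Hibadh side in H3K79me2, and -0.38 and 0.07 in H3K79me3. These are descriptions of a few regions, some of which overlap. Of the 18 outside regions that are not among the 8 genes, 2 were past the rule in any comparison. Only 8 of the 18 in H3K79me2 and 10 in H3K79me3 had enough counts to be called. In D546R against WT 1 of the 8 was lower and 1 of the 10 higher, against 0.865% and 6.95% of all genes. These are the overlapping gene models 5430402O13Rik and 4921507P07Rik at 1629 and 1628 kb. 5430402O13Rik had 271 counts of H3K79me2 in WT and 67 in D546R, a ratio of -1.19 (-2.14 to -0.35), and stood at 0.86 (-0.22 to 1.96) in H3K79me3. 4921507P07Rik had 95 counts of H3K79me3 in WT, 79 in D544R and 335 in D546R, higher by 1.56 (0.37 to 2.86) against WT. In H3K79me2 it had 175 and 17 counts in WT and D546R, -2.52 (-4.63 to -1.01), below the count minimum. Both models thus had a negative ratio in H3K79me2 and a positive one in H3K79me3, and their regions overlap.

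Relatives of several of these genes lie beside the other Hox clusters, which arose with HoxA by duplication of a larger block. A list of 13 genes beside those clusters was used as a comparator. Beside HoxB it held Skap1, Snx11, Cbx1, Nfe2l1 and Calcoco2, and beside HoxC Cbx5, Hnrnpa1, Nfe2 and Calcoco1. Beside HoxD it held Hnrnpa3, Nfe2l2, Atf2 and Mtx2, of which Atf2 and Mtx2 are not relatives of the 8 genes. The median ratio of the 13 genes in D546R against WT was 0.12 in H3K79me2 and -0.32 in H3K79me3, close to the -0.25 of the HoxA neighbours in the latter. This likeness in H3K79me3 did not extend to the other comparisons. In D544R against WT the 13 genes were at -0.52 and the HoxA neighbours at 0.10. In D546R against D544R they were at 0.12 and -0.35. The ratios of single comparator genes that follow are those of D546R against WT. Skap1, the T cell relative of Skap2, had 908 and 531 counts of H3K79me2 in WT and D546R, a ratio of 0.04 (-0.30 to 0.38), whose lower bound lay above the upper bound of Skap2 (-0.75). In H3K79me3 it was at -0.54 (-0.93 to -0.16), again without overlap with Skap2 (-2.05 to -1.31). In WT, however, Skap1 stood at only 0.98 and 1.43 times the silent level in H3K79me2 and H3K79me3, against 9.98 and 5.36 for Skap2, so it had little or no signal above that level and the contrast with Skap2 is not one of equal marks. Cbx1, which encodes HP1 beta, had an H3K79me3 ratio of -1.70 (-3.04 to -0.57), past the rule. Its H3K79me2 ratio was -0.16 (-0.66 to 0.32), and the intervals of the 2 marks overlapped. Cbx5, for HP1 alpha, was at 0.20 (-1.02 to 1.38) and 0.12 (-0.61 to 0.81) in the same order.

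Among the relatives of Hnrnpa2b1, Hnrnpa1 and Hnrnpa3 were at -0.35 (-1.60 to 0.80) and -0.33 (-1.36 to 0.64) in H3K79me3 in D546R, with intervals that overlap that of Hnrnpa2b1. Nfe2, the erythroid relative of Nfe2l3, was at -0.92 (-2.08 to 0.12) and the stress response factor gene Nfe2l2 at -0.32 (-0.80 to 0.14). The other genes past the rule in D546R against WT were Snx11, higher in H3K79me2 at 1.12 (0.28 to 1.97), and Calcoco2, higher in H3K79me3 at 1.41 (0.02 to 2.91). Nfe2l1 (1.09) and Calcoco1 (0.94), each with a fragment interval that included 0, were also above 0 in that mark, and Atf2 and Mtx2 stood at -0.50 and 0.39. In H3K79me3 the rule was thus passed by 2 of 8 HoxA neighbours, both lower, and by 2 of 12 comparator genes, 1 lower and 1 higher, against 8.91% lower and 6.95% higher among all genes. With fragment intervals these became 1 of 8 neighbours and 2 of 12 comparator genes, against 5.55% lower and 4.26% higher.

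Genes with the pattern most like Skap2 were found by the smallest Euclidean distance over 4 ratios (2 mutants against WT in 2 marks), among 3402 genes with a mean of at least 300 in both marks. They were the chromatin reader gene Baz2b on chromosome 2 (distance 0.13), the selenoprotein gene Selt on chromosome 3 (0.15), the cell cycle kinase gene Cdk6 on chromosome 5 (0.21), the endocytosis gene Fcho2 on chromosome 13 (0.25) and the SUMO protease gene Senp6 on chromosome 9 (0.28). None lies on chromosome 6. Baz2b stood at -0.94 and -1.75 in D546R and at 0.17 and -0.29 in D544R, H3K79me2 first. The 4 ratios share WT libraries, and likeness here is a description of these 6 libraries.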

How the data were processed

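ChIP-seq of H3K79me2 and H3K79me3 was analysed from 6 libraries, 1 per genotype and mark. The table deposited by the authors holds raw read counts per gene with no normalization, per the file headers. Bowtie, bedtools, DESeq and the mm9 build are named, with no role, per the submitters' processing notes. The sources used here do not say how duplicate and multiply mapped reads were treated, so reads of near-identical copies of a gene may be shared. The table has no strand. In 817 of 1089 head-to-head gene pairs with 1 RefSeq promoter each, the distance between starts (within 20 bases, GRCm38.p6) placed the 2 kb extension of the minus-strand gene past its end, and in 0 before its start. Regions of Skap2, Hnrnpa2b1, Hibadh and Jazf1 therefore lack the upstream 2 kb.

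Size factors were medians of ratios over the 3 libraries of a mark. The log2 ratio used a prior count of 0.5, with an exact conditional binomial (Clopper-Pearson) 95% interval. Reads per fragment were estimated from regions under 5 kb with no count. Silent genes were 48 fixed names. The cluster meant the HoxA genes, Evx1 and the regions among them. Some items are not reported here. Calculations used Python 3.11.15, scipy 1.17.1 and edgeR 4.0.16 (TMM only) and were checked on simulated data. Alternatives were other scalings, subtraction, priors, filters, thresholds and windows. Named genes were the 8 genes, Hoxa7, Hoxa9, Hoxa10, Evx1, window genes past the rule, the 13 comparator genes and the 5 genes nearest to Skap2. Gm15055 and Hoxa3 were named after their values were seen. The genes and lists were chosen with earlier results of these data known.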

Additional observations from a re-analysis of the deposited data

How the results depend on the processing

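The 2-fold rule gave counts of flanking genes that depend on values near the line. In D546R against WT in H3K79me3, 2 genes became 1 with total counts, TMM factors, chromosome 6 size factors, a prior count of 5 or the fragment interval, since Cbx3 was lost each time. In H3K79me2 the same comparison gave 1 gene at 1.5-fold (Skap2) and 2 after subtraction of the silent gene density, Skap2 lower and Jazf1 higher (1.07). D546R against D544R in H3K79me2 gave 0 in place of 1 with size factors over all 6 libraries and with silent genes as the reference. The median of the 8 genes in H3K79me3 moved with that subtraction, to -0.59 in D546R against WT and to -0.90 against D544R, when the median of all genes was -0.30 and -0.24. With silent genes setting the scale, the all-gene median in D546R against WT shifted by 0.14 in H3K79me2. Skap2 in D546R against WT lay between -1.05 and -0.79 in H3K79me2 and between -2.83 and -1.60 in H3K79me3. Of 336 alternative ratios of single genes 15 changed sign, all from a main value of at most 0.06 in size. The 115 other summary values stayed within 1.5 times (counts) or moved by less than their interval (medians), also when noncoding regions of the cluster were kept, an alternative chosen after seeing the data. No paired analysis was possible because each group has 1 library. Depth limits Nfe2l3 above all, with 42 counts in the D546R H3K79me2 library.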

Other observations

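Among other genes in the 2 Mb around Hoxa9, outside the 8 genes described, 8 in H3K79me2 and 10 in H3K79me3 had enough counts to be called. Cpvl, a serine carboxypeptidase gene of macrophages at 1647 kb, had 417 counts of H3K79me3 in WT and 895 in D546R, higher by 0.85 (0.23 to 1.48), and 410 and 201 of H3K79me2, a ratio of -0.21 (-0.77 to 0.32). Chn2, a Rac GTPase regulator gene at 1814 kb, was at 0.42 (0.15 to 0.69) in H3K79me2. Osbpl3 and Creb5, at 1768 and 1347 kb, were at -0.09 and -0.19 in H3K79me2 and at -0.21 and -0.15 in H3K79me3. Cycs, the cytochrome c gene at 1658 kb, had 128 and 35 counts of H3K79me2 in WT and D546R, -1.04 (-2.45 to 0.13), and the neuropeptide gene Npvf at 1570 kb had 43 and 5, -2.20 (-7.52 to 0.46). Gm6559 at 831 kb had 109 and 36 counts of H3K79me3, -1.83 (-5.14 to 0.37). The noncoding gene 1700094M24Rik, between the cluster and Hibadh, had 21 counts of H3K79me3 in WT and 158 in D546R, 2.63 (0.42 to 5.76), below the count minimum. These genes were chosen after their values were seen.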
